A study of Chlorocebus sabaeus with 6 samples.

Results

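The ubiquitin C-terminal hydrolase (UCH) family was examined in COS7, an SV40-immortalised, fibroblast-like kidney line of the African green monkey, Chlorocebus sabaeus. Its genes are UCHL1, UCHL3, UCHL5 and BAP1. They were found by gene symbol, and 3 of the 4 had a row among the 18050 genes analysed; UCHL3 was not analysed here. The family was chosen by the level of UCHL1 itself, which earlier results of these same data showed nearly absent from the knockout libraries, and the others were added as members of its protein family. The DKO against WT values of the members are therefore a description, and no test is given for them. The knockout cells were 3 samples of COS7 with the genotype ATL2/3 knockout (DKO1, DKO2 and DKO3), and they were set against 3 samples of wild-type COS7 (WT1, WT2 and WT3). Both groups were kept in the same serum-containing DMEM with penicillin and streptomycin. The labels give neither the number of knockout clones nor whether the samples of a group were separate cultures, so a p-value here measures nothing beyond sample-to-sample spread, possibly of technical origin.

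UCH enzymes are cysteine proteases that cut ubiquitin from small adducts or from substrates, and so return ubiquitin to the free pool. In human and mouse, UCHL1 (also called PGP9.5) is among the most abundant proteins of neurons and neuroendocrine cells, where it binds monoubiquitin, and it also appears in many tumour and transformed lines. UCHL5 (UCH37) works on the 19S cap of the proteasome through the receptor ADRM1 and is also part of the INO80 chromatin remodeller. BAP1 is a nuclear enzyme and tumour suppressor that, bound to an ASXL protein, removes ubiquitin from histone H2A.

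The libraries held between 14197344 and 15693049 estimated counts each. Of 13094 genes that passed the filter on low counts, edgeR's quasi-likelihood test called 5959 at an adjusted p below 0.05, a background of 45.5%, with 23.3% higher and 22.2% lower in DKO. DKO3 stood apart from the other DKO libraries, and without it 74.6% of genes were called (36.0% higher, 38.6% lower), so counts are given with and without that library. The targeted genes went with the labels: ATL2 averaged 5.94 ± 1.9 FPKM in DKO and 30.6 ± 1.5 in WT, and ATL3 4.88 ± 1.25 in DKO and 35.8 ± 1.36 in WT (SD, n = 3 each; edgeR adjusted p = 0.00029 and 3.7e-05). FPKM is a level scaled to transcript length and library depth, so that genes can be compared with each other. As for cell type, 4 of the 9 fibroblast genes with a row were at or near 0 in both groups: THY1 was listed at 0 in all 6 libraries, and COL1A2, COL3A1 and DCN did not pass 0.05 FPKM in any. The others were detected: PDGFRA averaged 16.8 ± 2.65 FPKM in DKO and 0.257 ± 0.0503 in WT, PDGFRB 5.35 ± 0.743 in DKO and 0.587 ± 0.0513 in WT, COL1A1 1.06 ± 0.219 in DKO and 7.4 ± 0.632 in WT, and FAP 0.64 ± 0.31 in DKO and 1.35 ± 0.125 in WT. Vimentin (VIM) averaged 1318 ± 51.4 FPKM in DKO and 1533 ± 20.3 in WT, and the simple-epithelial keratin gene KRT8 451 ± 80.7 in DKO and 508 ± 42.9 in WT.

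UCHL1 (gene ID 103246177) was the member whose level differed most. Its counts were 0, 1 and 1 in DKO1, DKO2 and DKO3, against 1917, 1921 and 1849 in WT1, WT2 and WT3. Its levels were 0, 0.06 and 0.05 FPKM in the DKO libraries, against 102.58, 103.16 and 98.6 FPKM in the WT libraries. Every DKO library thus lay at the floor of detection, and the WT libraries were high and close together, with a mean of 101 ± 2.48 FPKM (SD, n = 3). Summed over libraries there were 2 counts in DKO and 5687 in WT. Scaled to library totals, the WT level was 2790 times the DKO level, with an exact 95% counting interval from 771 to 23000, which covers counting error only. Leaving out DKO1 gave a ratio of 1890 (522 to 15600), leaving out DKO2 3780 (679 to 149000) and leaving out DKO3 3600 (645 to 142000), so the upper limit rests on single counts. Leaving out a WT library gave 2760 to 2830. In bulk RNA, fewer cells that express a gene cannot be told apart from less RNA of it per cell.

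UCHL5 (gene ID 103230396) was lower in all DKO libraries, but unevenly. It stood at 30.75, 30.57 and 11.36 FPKM in DKO1, DKO2 and DKO3, against 46.45, 43.81 and 47.6 FPKM in WT1, WT2 and WT3. The groups did not overlap, DKO1 and DKO2 were nearly equal, and DKO3 had 37.1% of their mean. The mean was 24.2 ± 11.1 FPKM in DKO and 46 ± 1.94 in WT (SD, n = 3 each), and the fitted log2 fold change was -0.89 (SE 0.32). Without DKO3 it was -0.58, and DKO1 and DKO2 together had 66.7% of the WT level. The log2 CPM scale is log2 of counts scaled to library totals after TMM normalization, with a small prior count added. On it, the value of UCHL5 in DKO3 minus its mean in DKO1 and DKO2 was -1.28. Of all tested genes, 5.54% had a difference as low or lower. The part of this library's departure in the UCHL5 difference was not tested beyond leaving it out. The UCHL5 counts were not whole numbers; how they were estimated is not given in the sources used here, so its level is uncertain to that extent.

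BAP1 (gene ID 103227728) had similar levels in both groups. It was at 27.21, 27.97 and 35.74 FPKM in DKO1, DKO2 and DKO3, against 28.66, 28.78 and 26.79 FPKM in WT1, WT2 and WT3. DKO1 and DKO2 fell within the WT range, and DKO3 lay above it. The mean was 30.3 ± 4.72 FPKM in DKO and 28.1 ± 1.12 in WT, with a fitted log2 fold change of 0.15 (SE 0.15), or -0.03 without DKO3. BAP1 lay 0.47 higher in DKO3 than in the other DKO libraries on the log2 CPM scale, where the median of all tested genes was 0.08.

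**Figure D1:**
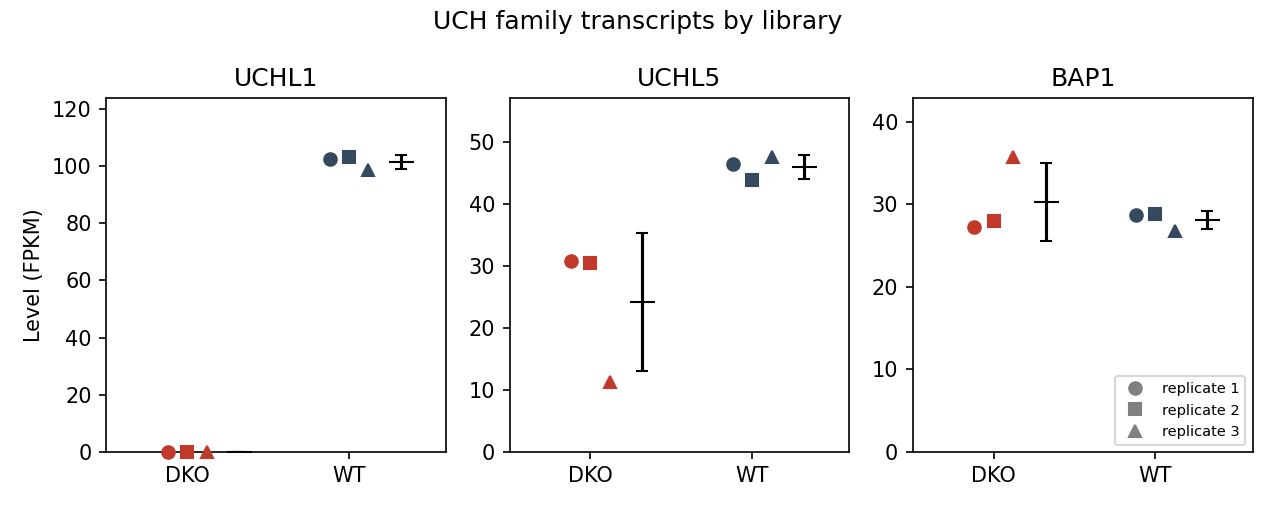
Level of each analysed member in FPKM (y axis, from 0) in the DKO and WT libraries; each symbol is a replicate number and the black mark is the mean with its SD (n = 3). UCHL1 is at or near 0 in DKO and near 101 FPKM in WT, UCHL5 is lower in DKO with DKO3 lowest, and BAP1 overlaps between the groups except for DKO3.

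All 3 analysed members passed the filter on low counts, UCHL1 through its WT libraries. For UCHL1 and UCHL5 the groups did not overlap, as for 63.3% of all genes tested; since the family was picked with this contrast known, nothing is read from that count.

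The make-up of the summed level of the 3 analysed members therefore differed between the genotypes. This restates the UCHL1 difference by which the family was chosen, and UCHL3 is not part of the sum. UCHL1 supplied 0, 0.102 and 0.106% of the summed FPKM of the 3 members in DKO1, DKO2 and DKO3, against 57.7, 58.7 and 57.0% in WT1, WT2 and WT3. The sum itself was 58.0, 58.6 and 47.2 FPKM in the DKO libraries, against 178, 176 and 173 FPKM in the WT libraries. Without UCHL1 the sum of UCHL5 and BAP1 was 58.0, 58.5 and 47.1 FPKM in DKO1, DKO2 and DKO3, against 75.1, 72.6 and 74.4 FPKM in the WT libraries. No DKO library thus carried a higher sum of these other members than a WT library. In WT the order was UCHL1, UCHL5, BAP1, with no overlap between neighbours. In DKO the order of UCHL5 and BAP1 was not fixed: UCHL5 was the higher in DKO1 and DKO2 and BAP1 in DKO3, and their means did not differ beyond the spread.

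Among deubiquitinase genes of every class, UCHL1 had a high place in WT. Of 92 such genes listed, 87 had a row. UCHL1 ranked 86th by mean FPKM in DKO and 6th in WT, and it held the 6th place in each WT library. The genes above it in WT were EIF3H, EIF3F, COPS6, PRPF8 and PSMD7. They encode subunits of the translation initiation factor eIF3, the COP9 signalosome, the spliceosome and the proteasome. All belong to the JAMM or MPN metalloprotease class, some members of which are known to be inactive. The ranks are therefore not ranks among active enzymes only. PSMD7, the next above, averaged 149 ± 4.13 FPKM in DKO and 115 ± 4.66 in WT, and PSMD14, the next below and the ubiquitin-cutting subunit of the proteasome cap, 101 ± 17.8 in DKO and 81.8 ± 5.03 in WT (SD, n = 3 each). Both stood apart from UCHL1 in WT by more than the SDs. In DKO a single listed gene ranked below UCHL1 by mean, the OTU-family gene OTUD7A, which was listed at 0 in the 3 DKO libraries and reached no more than 0.05 FPKM in WT. UCHL5 ranked 23rd in DKO and 17th in WT, and BAP1 20th in DKO and 22nd in WT.

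**Figure D2:**
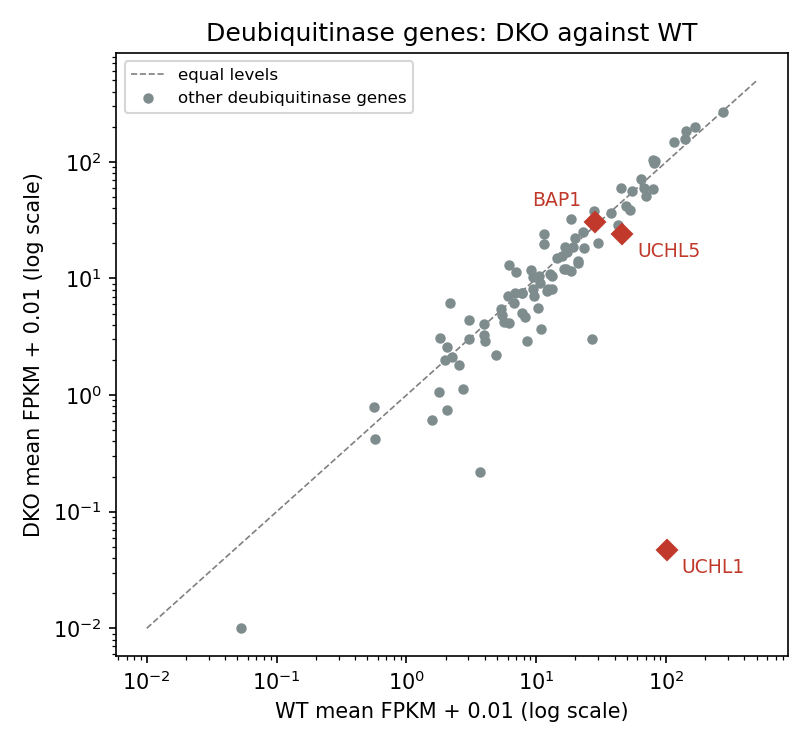
Mean level of each deubiquitinase gene in DKO (y axis) against WT (x axis), as mean FPKM + 0.01 on log scales; grey points are the other listed genes, red diamonds the UCH members, and the dashed line marks equal levels. UCHL1 lies far below the line at 101 FPKM in WT, while UCHL5 and BAP1 lie with the other genes near it.

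Within the whole transcriptome, UCHL1 was the gene with the highest WT level among those at the floor in DKO. Of 3385 genes with 3 or fewer counts summed over the DKO libraries, 16 had a mean of at least 10 FPKM in WT. UCHL1 was first of these at 101 FPKM, followed by the desmosome gene DSP at 46.4 and the collagen gene COL11A1 at 31.6 FPKM in WT. The 5 genes nearest to UCHL1 by Euclidean distance over the 6 values of log2(FPKM + 1) were ALDH1A1 (1.83), PEG10 (1.93), DSP (1.93), CLDN4 (2.32) and LHX1 (2.69). ALDH1A1, a retinaldehyde dehydrogenase gene, averaged 0.1 ± 0.01 FPKM in DKO and 48.4 ± 0.457 in WT. PEG10, an imprinted gene derived from a retrotransposon, averaged 1.03 ± 0.289 FPKM in DKO and 69.9 ± 1.55 in WT. The claudin gene CLDN4 averaged 0.823 ± 0.136 FPKM in DKO and 48.2 ± 3.13 in WT, and the kidney and neural homeobox gene LHX1 0.09 ± 0.0557 in DKO and 33.9 ± 2.04 in WT. These genes were picked for this pattern, so their levels are a description. All 5 shared the low DKO and high WT levels, and none reached the WT level of UCHL1.

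None of the analysed genes next to UCHL1 on its chromosome was near 0 in DKO and high in WT. In the RefSeq gene order of assembly mChlSab1.0.hap1, used for order only, 7 of the 10 protein-coding genes nearest to UCHL1 (5 on each side) had a row; the others were not analysed here. All 7 were tested, and 1 was higher, 1 lower and 5 not called, 28.6% against the background of 45.5%. Without DKO3, 2 were higher and 2 lower, beside a background of 74.6%. LIMCH1, the next gene on one side, which encodes an activator of non-muscle myosin II, stood at 106.04, 107.7 and 105.58 FPKM in DKO1, DKO2 and DKO3, against 36.2, 36.11 and 39.14 FPKM in WT1, WT2 and WT3. It rose 1.55 on the log2 scale (SE 0.09, edgeR adjusted p = 2.5e-05), with all DKO libraries above all WT libraries. APBB2, the next gene on the other side, which encodes an adaptor of the amyloid precursor protein, stood at 32.37, 33.51 and 32.73 FPKM in the DKO libraries, against 40.55, 39.26 and 38.11 FPKM in the WT libraries. Its log2 fold change of -0.23 (SE 0.09) was not called (edgeR adjusted p = 0.069), although the groups did not overlap, and it was called without DKO3 (-0.25, edgeR adjusted p = 2.1e-05).

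RBM47, a splicing and RNA-editing factor gene 3 places from UCHL1, fell to 0.24 ± 0.0794 FPKM in DKO, against 1.12 ± 0.0208 in WT (log2 fold change -2.16, SE 0.22, edgeR adjusted p = 0.00028). The zinc transporter gene SLC30A9 averaged 18.5 ± 6.87 FPKM in DKO and 17 ± 0.35 in WT, and was called higher without DKO3 (log2 fold change 0.40). TMEM33 averaged 21.7 ± 5.59 FPKM in DKO and 25 ± 1.29 in WT. NSUN7, at 1.11 ± 0.165 FPKM in DKO and 0.987 ± 0.188 in WT, and DCAF4L1, at 0.197 ± 0.0404 in DKO and 0.22 ± 0.0173 in WT, were low in both groups and not called.

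**Figure D3:**
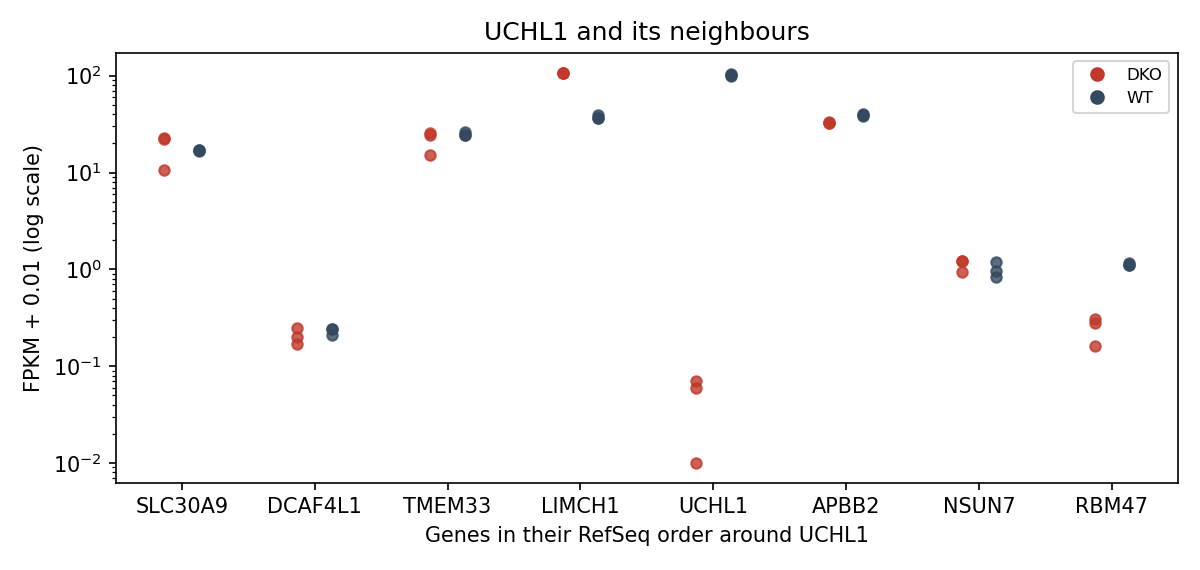
FPKM + 0.01 (log y axis) of UCHL1 and the 7 analysed neighbours in their RefSeq order along the x axis, with no scale of distance; each point is a library, DKO left of WT. UCHL1 alone drops to the floor in DKO, LIMCH1 beside it is higher in DKO, and RBM47 is lower in DKO.

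Among the other deubiquitinases, genes were called in both directions. Of 48 tested genes of the ubiquitin-specific proteases (USP), the largest class, 5 were higher, 9 lower and 34 not called, 29.2% against the background of 45.5%; the median log2 fold change was -0.13, against -0.01 over all tested genes. Without DKO3, 14 were higher and 20 lower of 49, beside a background of 74.6%, with a median of -0.07. USP2, which acts on cyclin D1 and clock proteins in human and mouse, rose to 6.11 ± 0.193 FPKM in DKO, against 2.16 ± 0.11 in WT (log2 fold change 1.59, SE 0.13). USP44, a regulator of the spindle checkpoint, fell to 0.207 ± 0.146 FPKM in DKO, against 3.66 ± 0.484 in WT (-4.28, SE 0.43). USP4 (0.84, SE 0.11), PAN2, which belongs to the class by its fold but acts in the shortening of mRNA tails (0.83, SE 0.13), and USP43 (0.81, SE 0.14) were also higher. USP49 (-1.31, SE 0.18), USP3, which acts on histone H2A (-0.85, SE 0.16), and USP28, which stabilises MYC (-0.76, SE 0.16), were also lower. For these 8 genes the edgeR adjusted p ran from 9.1e-05 to 0.0066. USP5, the class member of the highest level and the enzyme that takes apart free ubiquitin chains, averaged 104 ± 24.8 FPKM in DKO and 79.4 ± 3.3 in WT and was not called (0.45, edgeR adjusted p = 0.093); without DKO3 it was called, at 0.19 (edgeR adjusted p = 0.00025).

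Of 34 tested genes of the remaining classes (OTU, Josephin, MINDY, ZUP1 and the JAMM or MPN metalloproteases, some of which are known to be inactive), 6 were higher, 7 lower and 21 not called, 38.2% against the background of 45.5%, with a median of -0.04. Without DKO3, 12 were higher and 11 lower, beside a background of 74.6%. TNFAIP3, the NF-kB inhibitor A20, fell to 3.04 ± 0.286 FPKM in DKO, against 26.6 ± 1.07 in WT (log2 fold change -3.09, SE 0.12). YOD1, an OTU enzyme of ER-associated degradation, fell to 3.68 ± 1.16 FPKM in DKO, against 10.8 ± 0.336 in WT (-1.52, SE 0.22). BRCC3, which cuts lysine-63 chains in the BRCA1-A complex (-1.50, SE 0.25), OTUD1 (-1.43, SE 0.20) and MPND (-1.25, SE 0.16) fell as well. STAMBPL1, an endosomal enzyme, rose to 13.1 ± 3.34 FPKM in DKO, against 6.1 ± 0.679 in WT (1.13, SE 0.19). For these 6 genes the edgeR adjusted p ran from 5.9e-06 to 0.003. EIF3H, at 267 ± 38.7 FPKM in DKO and 276 ± 11.6 in WT, had the highest level of the group and was not called.

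Genes whose products bind BAP1 or act on the same histone mark included 7 that fell and 2 that rose, beside similar BAP1 levels in both groups. Of 16 such genes 15 were tested and 6 were not called, 60.0% against 45.5% of all genes, with a median of -0.37 against -0.01. Without DKO3 the counts were 2 higher and 10 lower, beside a background of 74.6%, with a median of -0.29. BRCA1 fell to 7.53 ± 1.06 FPKM in DKO, against 15.8 ± 0.791 in WT (log2 fold change -1.03, SE 0.12, edgeR adjusted p = 0.00059). ASXL2, one of the cofactors that activate BAP1, fell to 5.3 ± 0.613 FPKM in DKO, against 8.76 ± 0.199 in WT (-0.69, SE 0.11, edgeR adjusted p = 0.0022). The paralogue ASXL1 was at 32.1 ± 0.825 FPKM in DKO and 30.8 ± 1.02 in WT and was not called (0.16), and ASXL3 was near 0 throughout. OGT, the O-GlcNAc transferase bound to BAP1 through HCFC1, fell to 32.3 ± 4.28 FPKM in DKO, against 46.8 ± 1.01 in WT (-0.50, SE 0.10, edgeR adjusted p = 0.007). MBD5, which binds the BAP1 complex, rose to 1.6 ± 0.13 FPKM in DKO, against 0.933 ± 0.0611 in WT (0.77, SE 0.13, edgeR adjusted p = 0.0025). Without WT1, WT2 or WT3, 4 genes were lower in each case, and without WT1 or WT3 a single gene was higher.

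Most partners of UCHL5, the subunits of the 19S proteasome cap and of the INO80 complex, were not called. All 32 were tested, and 6 were higher, 2 lower and 24 not called, 25.0% against the background of 45.5%, with a median of 0.09. Without DKO3, 10 were higher and 9 lower, beside a background of 74.6%, with a median of 0.01. INO80C, an INO80 subunit, rose to 53.7 ± 5.49 FPKM in DKO, against 23.6 ± 0.483 in WT (log2 fold change 1.25, SE 0.15, edgeR adjusted p = 0.00056). PSMD7, a cap subunit paired with PSMD14, rose by 0.43 (SE 0.08, edgeR adjusted p = 0.0058). PSMD2 rose by 0.55 (SE 0.15, edgeR adjusted p = 0.019), and PSMD1, a scaffold of the same cap, fell (log2 fold change -0.37, SE 0.09, edgeR adjusted p = 0.017). SEM1, a small cap subunit and the group's most abundant transcript, averaged 379.9 ± 87.1 FPKM in DKO and 241 ± 4.98 in WT (0.78, edgeR adjusted p = 0.035). The receptor that holds UCHL5 on the proteasome, ADRM1, stood at 149.29, 143.82 and 192.22 FPKM in DKO1, DKO2 and DKO3, against 151.31, 157.47 and 151.71 FPKM in WT1, WT2 and WT3. The receptor that holds it in INO80, NFRKB, stood at 5.78, 4.65 and 5.87 FPKM in the DKO libraries, against 5.34, 4.86 and 5.6 FPKM in the WT libraries. Neither was called (log2 fold changes 0.11 and 0.09), and for both the DKO and WT libraries overlapped; these 2 genes were chosen after their values were seen. Without any one WT library 2 genes were higher, and 0 to 1 lower; PSMD2 and SEM1 lost their calls without WT1, WT2 or WT3, and PSMD1 without DKO1, WT1 or WT3. Without DKO1 there were 0 lower, and without DKO2 there was 1.

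In the catalytic 20S core of the proteasome, 1 gene was higher, 3 lower and 13 not called of 17 tested. That was 23.5% called, against the background of 45.5%, with a median of 0.14. Without DKO3, 7 were higher and 6 lower, beside a background of 74.6%, with a median of 0.01. Without DKO1 or DKO2, 2 were higher. The called genes included all those listed for the immunoproteasome, the form induced by interferon. PSMB8 fell to 0.917 ± 0.281 FPKM in DKO, against 5.71 ± 0.526 in WT (log2 fold change -2.56, SE 0.24, edgeR adjusted p = 0.0002), and PSMB9 to 7.17 ± 0.756 in DKO, against 12.3 ± 1.75 in WT (-0.71, SE 0.18, edgeR adjusted p = 0.018). PSMB10 went the other way, at 45.7 ± 9.06 FPKM in DKO and 23.4 ± 2.09 in WT (1.02, SE 0.19, edgeR adjusted p = 0.0048). PSMA4, of the constitutive core, fell to 95.6 ± 32.3 FPKM in DKO, against 195 ± 8.85 in WT (-0.99, SE 0.22, edgeR adjusted p = 0.0091). PSMB9 lost its call without WT1 or WT3. PSMB3, the core gene of the highest level, averaged 404 ± 63.4 FPKM in DKO and 333 ± 4.48 in WT and was not called (0.36), and without DKO3 it was called at 0.13 (edgeR adjusted p = 0.0085).

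The genes that supply ubiquitin and its relative NEDD8, the substrates UCH enzymes handle, included calls in both directions. Among 21 genes for ubiquitin, NEDD8, their activating and conjugating enzymes and the cullins, 3 were higher, 2 lower and 16 not called. That was 23.8% called, against the background of 45.5%, with a median of -0.06. Without DKO3, 9 were higher and 4 lower, beside a background of 74.6%. UBE2L3, a ubiquitin-conjugating enzyme gene, rose to 113 ± 18.1 FPKM in DKO, against 81.2 ± 1.72 in WT (log2 fold change 0.52, SE 0.11, edgeR adjusted p = 0.0085). The cullin gene CUL4B fell to 6.51 ± 3.14 FPKM in DKO, against 20.6 ± 0.0608 in WT (-1.67, SE 0.37, edgeR adjusted p = 0.0094). The polyubiquitin gene UBB rose to 2079.5 ± 384 FPKM in DKO, against 1441 ± 49.2 in WT (0.61, SE 0.19, edgeR adjusted p = 0.033). RPS27A, a fusion of ubiquitin with a ribosomal protein, was called higher (0.31, edgeR adjusted p = 0.042), but its groups overlapped. It lost the call without any one of the libraries other than DKO3. Its DKO3 value of 1658.3 FPKM lay below all WT values in FPKM. The call was made on counts, where DKO3 had 13475 before scaling, against 12524, 12187 and 12990 in WT1, WT2 and WT3. DKO3 was also the deepest library, with 15693049 estimated counts in total, against 15127039 in WT3. These unscaled counts therefore do not place it above WT. Genes of this kind have near-identical copies, so their counts are uncertain. Without WT1, WT2 or WT3 the counts were 1, 0 and 1 higher and 1 lower each, UBB lost its call in each case and UBE2L3 without WT2, and without DKO1 or DKO2 there was 1 lower.

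**Figure D4:**
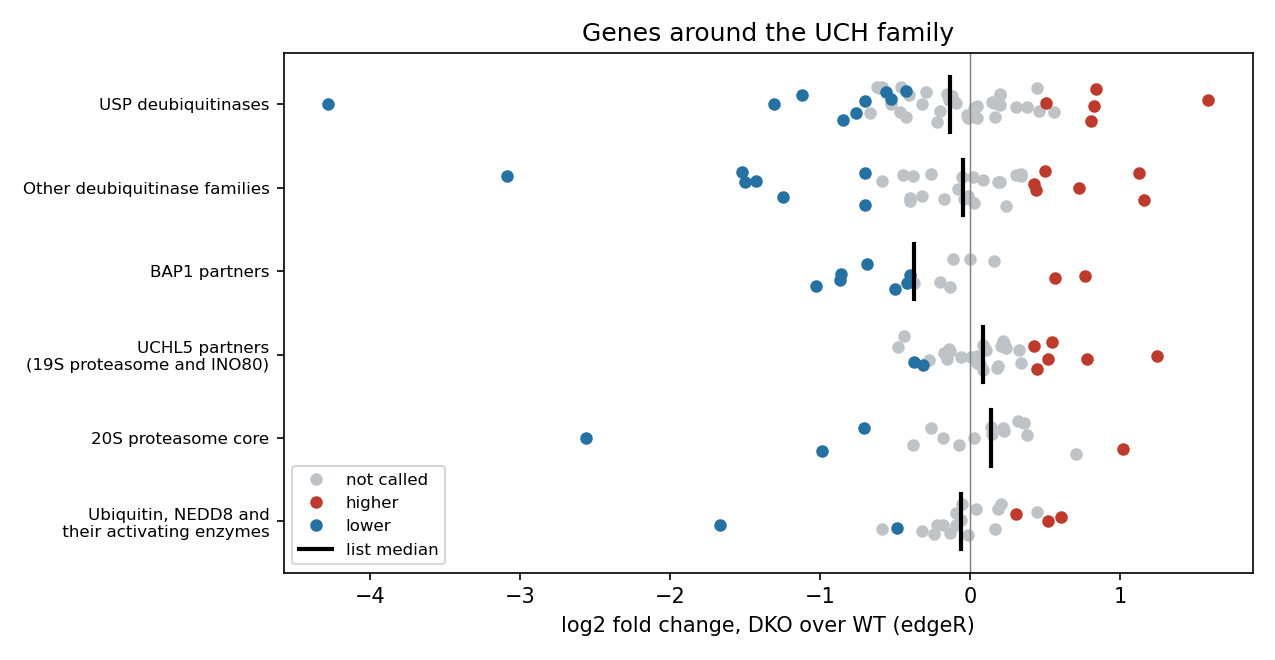
Log2 fold change, DKO over WT (x axis), of each tested gene in 6 groups of genes related to the UCH family (rows); red points were called higher, blue points lower and grey points not called at an edgeR adjusted p below 0.05, and black bars are medians. Medians lie between -0.37 for BAP1 partners and 0.14 for the 20S core.

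UCHL1 is a marker of neurons and neuroendocrine cells, so the other markers of these cells were listed beside it. Of 25 such genes 21 had a row and 8 were tested; 3 were higher, 1 lower and 4 not called, 50.0% and so near the background of 45.5%. Without DKO3, 5 were higher and 3 lower of 9, beside a background of 74.6%. Their summed level was 84.8 to 86.3 FPKM in DKO and 49.1 to 51.5 FPKM in WT. RBFOX3, the neuronal splicing factor NeuN, rose to 6.88 ± 0.216 FPKM in DKO, against 1.08 ± 0.0964 in WT (log2 fold change 2.73, SE 0.13, edgeR adjusted p = 1.3e-05). The adhesion gene NCAM1 rose to 10.4 ± 0.862 FPKM in DKO, against 3.97 ± 0.0321 in WT (1.25, SE 0.11, edgeR adjusted p = 0.00013). The synaptotagmin gene SYT1 rose to 32.9 ± 8.81 FPKM in DKO, against 11.3 ± 0.58 in WT (1.58, SE 0.19, edgeR adjusted p = 0.00059). SNAP25 was called lower (edgeR adjusted p = 0.0036), at 0.07 FPKM in DKO2, listed at 0 in DKO1 and DKO3, and at 0.45, 0.35 and 0.45 FPKM in WT1, WT2 and WT3. The neuronal genes STMN2, DCX and NEFL were at 0 in all DKO libraries and at no more than 0.1 FPKM in WT. Others of the list were expressed in both groups. ENO2, at 20.1 ± 4.72 FPKM in DKO and 14.3 ± 0.982 in WT, and STMN3, at 13.8 ± 3.66 in DKO and 17.5 ± 1.23 in WT, were not called. Without DKO3, ENO2 was called higher (0.28) and STMN3 lower (-0.57). ELAVL3 averaged 0.53 ± 0.277 FPKM in DKO and 0.0433 ± 0.0513 in WT and was not tested. SCG3 averaged 0.0633 ± 0.0289 FPKM in DKO and 0.403 ± 0.112 in WT and was not tested either. Without DKO3, SCG3 was called lower (-2.35, edgeR adjusted p = 0.00087). The neuroendocrine genes CHGA, CHGB and SCG2 did not pass 0.27 FPKM in any library and were not tested. Without DKO1, DKO2 or WT3, 2 genes of the list were lower.

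Markers of kidney epithelium were called in both directions. Of 10 tested genes of that list 2 were higher, 7 lower and 1 not called, 90.0% against the background of 45.5%. Without DKO3, 3 were higher and 8 lower of 11, beside a background of 74.6%. The summed levels were 568 to 735 FPKM in DKO and 818 to 912 FPKM in WT. The cadherin gene CDH1 fell to 0.0867 ± 0.0153 FPKM in DKO, against 4.84 ± 0.0814 in WT (log2 fold change -5.69, SE 0.17, edgeR adjusted p = 4.4e-06). LHX1 fell by 8.48 (SE 0.28), EMX2 fell by 3.24 (SE 0.14) and PAX8 fell by 1.37 (SE 0.12), each on the log2 scale, with edgeR adjusted p-values from 4.4e-06 to 0.00015. The adhesion gene EPCAM rose to 32 ± 9.03 FPKM in DKO, against 12.9 ± 0.93 in WT (1.34, SE 0.20, edgeR adjusted p = 0.0016), and the keratin gene KRT19 to 1.15 ± 0.526 in DKO, against 0.24 ± 0.08 in WT (2.31, SE 0.48, edgeR adjusted p = 0.007). KRT8, the gene of the highest level in the list, was not called (-0.10). Of the fibroblast list 9 of 10 genes had a row and 5 were tested, with 80.0% called against the background of 45.5%. PDGFRA (6.10, SE 0.20) and PDGFRB (3.23, SE 0.18) rose, and COL1A1 (-2.75, SE 0.20) and FAP (-1.05, SE 0.31) fell. Their edgeR adjusted p-values ran from 4.4e-06 to 0.031. Without DKO3, 2 were higher and 3 lower, beside a background of 74.6%. The summed fibroblast level, 1281 to 1382 FPKM in DKO and 1521 to 1561 FPKM in WT, was almost all VIM, which was not called (-0.17, edgeR adjusted p = 0.079). FAP lost its call without DKO2, WT1, WT2 or WT3, which left 1 gene lower. Of the endothelial and blood cell list 8 of 10 had a row, with sums of 28.8 to 30.0 FPKM in DKO and 14.3 to 16.1 FPKM in WT. Only 3 were tested, with 66.7% called against the background of 45.5%. TEK (8.18, SE 0.22, edgeR adjusted p = 4.1e-06) and VWF (2.49, SE 0.36, edgeR adjusted p = 0.0014) rose. CD68, at 14 ± 0.764 FPKM in DKO and 15 ± 0.927 in WT, was not called. Without DKO3, 2 were higher and 0 lower of 3, beside a background of 74.6%. These lists were chosen with earlier results of these data known, so nothing is read from their shares of called genes. The part of these marker differences in the level of UCHL1 was not tested.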

How the data were processed

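RNA from 6 COS7 samples was sequenced from BGI mRNA libraries, per the labels' protocols. The authors deposited 1 table of 18050 genes with estimated counts, FPKM and TPM, per the file headers. TPM, deposited by the authors, was not used further. Between 5.8 and 6.5% of the estimated counts per library were not whole. The submitters' processing notes name HISAT and Bowtie2 as tools; the sources used here do not state versions, counting program, genome build or use of strand. The 9 columns of 3 other samples were not used.

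Counts were rounded and tested, DKO over WT, with edgeR 4.0.16 (R 4.3.3; quasi-likelihood test, TMM normalization, default filter by group with a minimum count of 10, Benjamini-Hochberg adjustment over 13094 genes). SE is the size of the log2 fold change over the root of the F statistic. Fold changes from few counts depend on the prior count, so UCHL1 is given as a ratio of summed counts. Levels are FPKM, mean ± SD. The test was run on simulated counts with few changed genes and no library that stood apart. That check therefore does not cover the conditions of these data. Alternatives were leaving out each sample, a block for the replicate number, no low-count filter, RLE size factors, DESeq2 1.42.0, and limma 3.58.1 on log2 FPKM with pseudocounts of 1 and 0.1 (mean FPKM of at least 0.5). Of the gene IDs, 16730 (92.7%) matched the RefSeq table. Genes were named by rule: the members, ATL2 and ATL3, up to 4 called genes of each list with the smallest adjusted p (8 for USP, 6 for the other classes) and its most abundant gene, the neighbours, and the 5 genes nearest to UCHL1. ASXL1, ASXL3, PSMD14, EPCAM, KRT19, ENO2, STMN3, ELAVL3, SCG3, CHGA, CHGB, SCG2, the marker genes at or near 0 and the genes ranked by level were named outside it, after their values were seen. A gene that this rule would name is not reported here. Members and lists were chosen with earlier results of these data known, so the share of called genes in any list is a description. Plots were made in Python 3.11.15 with matplotlib 3.10.9.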

Additional observations from a re-analysis of the deposited data

How the results depend on the processing

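Direction was compared for 56 of the named genes, and no called result among them was reversed under any alternative. For other genes, apart from the members, only counts of calls were compared. In the fits other than those leaving out a library 139 of 162 list counts and member values stayed within 1.5 times or 1 SD. The deviations from the group means of same-numbered samples correlated at 0.022, -0.28 and -0.29. DKO1 and DKO2 had similar correlations with each WT sample, and those of DKO3 had the opposite sign. The check thus follows mainly the departure of DKO3, and it cannot show whether the replicate numbers pair the samples. With the replicate block, BAP1 partners had 1 gene higher, UCHL5 partners 3 higher and 0 lower, and the ubiquitin and NEDD8 list 1 higher and 1 lower. With no filter on low counts, as with DESeq2, 2 genes of the 20S core were higher, and 1 of the ubiquitin and NEDD8 list, 2 neuronal and 1 endothelial or blood cell marker were lower. With limma on FPKM at either pseudocount, 0 neuronal markers were lower and 1 endothelial or blood cell marker was higher. SNAP25 and VWF fell below the minimum mean of 0.5 FPKM and were not tested there, so limma does not bear on their calls. With limma, and with RLE size factors, 2 neighbours of UCHL1 were lower. The UCHL1 log2 fold change was -11.17 in edgeR, -11.43 in DESeq2, and -6.63 and -9.57 in limma with pseudocounts of 1 and 0.1, since the value depends on what is added to a level near 0. RPS27A was called in none of the other settings that kept all 6 samples.

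Leaving out 1 sample at a time, the counts over all genes ranged from 2105 to 4770 higher and from 2146 to 5110 lower. Counts of higher and of lower genes ranged from 4 to 14 and 6 to 20 (USP), 4 to 12 and 6 to 11 (other classes), 1 to 2 and 4 to 10 (BAP1 partners), 2 to 10 and 0 to 9 (UCHL5 partners), 1 to 7 and 2 to 6 (20S core) and 0 to 9 and 1 to 4 (ubiquitin and NEDD8). For markers they ranged from 4 to 5 and 1 to 3 (neuronal), 2 and 1 to 3 (fibroblast), 2 to 3 and 7 to 8 (kidney epithelium), and for the neighbours from 1 to 2 and 1 to 2. The UCHL1 log2 fold change ranged from -11.53 to -10.68, the UCHL5 log2 fold change from -1.09 to -0.58 and the BAP1 log2 fold change from -0.03 to 0.23. With 2 counts in DKO, the depth leaves the size of the UCHL1 ratio imprecise.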
